A study of Mus musculus with 25 samples.

Results

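Keratins are the filament proteins of epithelial cells. The genes described here are the 50 mouse genes whose symbol is Krt followed by digits alone, of 54752 genes in the deposited tables. Each gene was chosen by its symbol and no threshold was applied, but the family was selected on its levels in these same libraries, which were known from earlier work on the data, so the tests below describe these libraries and are not independent support. They encode 26 type I (acidic) and 24 type II (basic) chains, and lie in 2 clusters, 25 genes on chromosome 11 and 25 on chromosome 15. Krt18 is the type I gene that sits beside the type II genes. A further 5 keratin symbols carry a letter (Krt6a, Krt6b, Krt33a, Krt33b and Krt8-ps) and were outside the rule.

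A keratin filament is built from a type I and a type II chain in equal parts, and each kind of epithelium makes its own pairs. Krt8 and Krt18, with Krt7 and Krt19, are the keratins of simple epithelia such as ducts and of the mesothelium, the cell layer that covers visceral fat. Krt5 and Krt14 mark basal cells, Krt1 and Krt10 the upper layers of the epidermis, and Krt79 the upper hair follicle and the duct of the sebaceous gland. Adipocytes carry the filament protein vimentin in place of a typical keratin network, and the epididymis, skin and mammary epithelium all lie close to the fat pads that are dissected.

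RNA was sequenced from epididymal (eWAT) and inguinal (iWAT) white adipose tissue of male C57BL/6NJ mice (C57BL/6N in the strain label). In eWAT there were 4 libraries from wild type (WT) mice on a normal chow diet (ND), 5 from WT mice on a high-fat diet (HFD, 60% of calories from fat) and 5 from HFD-fed Acod1-/- (KO) mice, which lack the enzyme that makes itaconate in every cell. In iWAT the same groups held 3, 5 and 3 libraries. HFD began at 5 weeks of age and lasted 16 weeks, and the labels give 17 and 18 weeks for iWAT KO libraries 2 and 3. No ND-fed KO library was analysed here, so KO was compared with WT only under HFD, and whether the 2 fat pads came from the same mice was not stated.

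The reads counted on genes ranged from 31.41 M to 52.34 M per library. The deleted gene gave no check of the labels at this depth. Acod1 had 0 to 9 counts in WT libraries and 0 to 2 in KO libraries. The 6 adipocyte genes (Fabp4, Cidec and Lep the highest on average) summed to 18727 counts per M reads (CPM) or more in every library. The number that opens each library's name in the tables falls into 2 series, the first (prefix 1) with 14 libraries and the second (prefix 2) with 11. All ND libraries carry prefix 2, against 1 of 5 HFD WT libraries in each depot, so that diet and prefix are nearly confounded.

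Several libraries stood apart in epithelial genes, and each keratin result below is given with that in view. In eWAT, 5 libraries held over 50 CPM of a 15-gene epididymis list. ND 2 had 7983 CPM (Crisp1 alone 6571), KO 5 had 1096, KO 1 had 533, HFD WT 5 had 119 and ND 3 had 88.5, against 0.298 to 25.5 in the other 9. ND 3 also held the cornified-layer genes Lor at 30.3 CPM and Flg2 at 10.8 CPM, while Lor was at most 0.295 and Flg2 at most 0.228 CPM in any other library of either depot. In iWAT, KO 2 and ND 3 held 1280 and 165 CPM of 7 sebaceous gland genes (Awat2 1133 and 118), against 4.58 to 12.5 in the other 9. The sebaceous list was drawn up after these values were seen. ND 2 of iWAT was the library with casein Csn3, at 5.48 CPM, in an 8-gene mammary list that summed to 9.27 CPM there and to at most 1.61 in the other iWAT libraries.

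**Figure D1:**
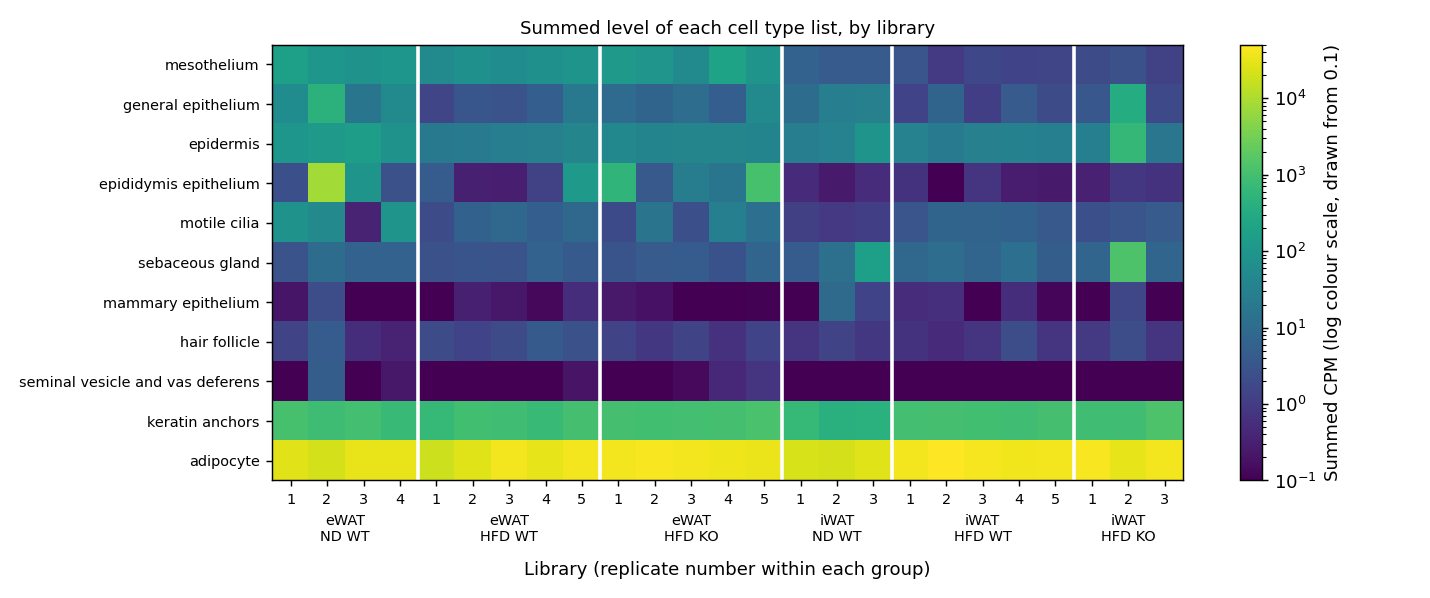
Summed CPM of each list of cell type genes (rows, log colour scale) in each of the 25 libraries (columns, by group). The mesothelium list is high across eWAT and near 0 in iWAT, while the epididymis and sebaceous lists are high in single libraries, led by eWAT ND 2 at 7983 CPM and iWAT KO 2 at 1280 CPM.

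Mesothelial genes separated the depots. The 10-gene mesothelium list (Upk3b, Msln and Gpm6a the highest) summed to 51.2 to 200 CPM in eWAT and to 0.920 to 6.32 in iWAT. Its member Calb2 was at or under 3 counts in every library. Of the 9 list genes tested, 9 were higher in eWAT and none lower, against 15.6% higher and 11.8% lower of all 15034 genes. Only 1 of the list (Gpm6a) passed the filter of a mean of 1 CPM in iWAT. The others were admitted through eWAT, which largely fixed their direction, so the count is not independent support. A second list of 14 genes general to epithelia (Epcam, Ehf and Cdh1 the highest) was not bound to a depot in this way. It summed to 58.0, 452, 16.6 and 52.5 CPM in eWAT ND 1 to 4, to 1.52 to 20.6 in eWAT HFD WT, and to 334 CPM in iWAT KO 2. The 12 epidermis genes (Sbsn, Lgals7 and Calml3 the highest) summed to 82.8 to 159 CPM in eWAT ND, 20.4 to 39.4 in eWAT HFD WT and 613 in iWAT KO 2. In eWAT ND 1, ND 2 and ND 4 most of the sum was Sbsn (47.3, 44.6 and 30.8 CPM) and Calml3 (36.8, 46.2 and 41.1 CPM). Calml3 was 1.84 CPM in ND 3, the library with Lor and Flg2. Of the 7 epidermis genes tested 5 were lower in HFD WT eWAT, as were 26.9% of all genes. The 6 hair follicle genes summed to at most 4.57 CPM, and the 6 seminal vesicle and vas deferens genes to at most 4.76 CPM, both in eWAT ND 2.

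Among the 50 keratins, 12 passed the filter of a mean of 1 CPM in eWAT (Krt5, Krt7, Krt8, Krt10, Krt14, Krt15, Krt18, Krt19, Krt77, Krt79, Krt80 and Krt222) and 11 in iWAT (Krt5, Krt8, Krt10, Krt14, Krt15, Krt17, Krt18, Krt36, Krt79, Krt80 and Krt222). Some of these passed through 1 library. Of the 36 that passed in neither depot, 11 had no read in any library and 31 stayed under 1 CPM throughout. The other 5 were Krt1 (0 to 5.99 CPM), Krt20 (0.0436 to 2.84), Krt23 (0 to 1.29), Krt78 (0 to 2.05) and Krt88 (0 to 1.37). Krt1, Krt23 and Krt78 had their highest value in eWAT ND 3.

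**Figure D2:**
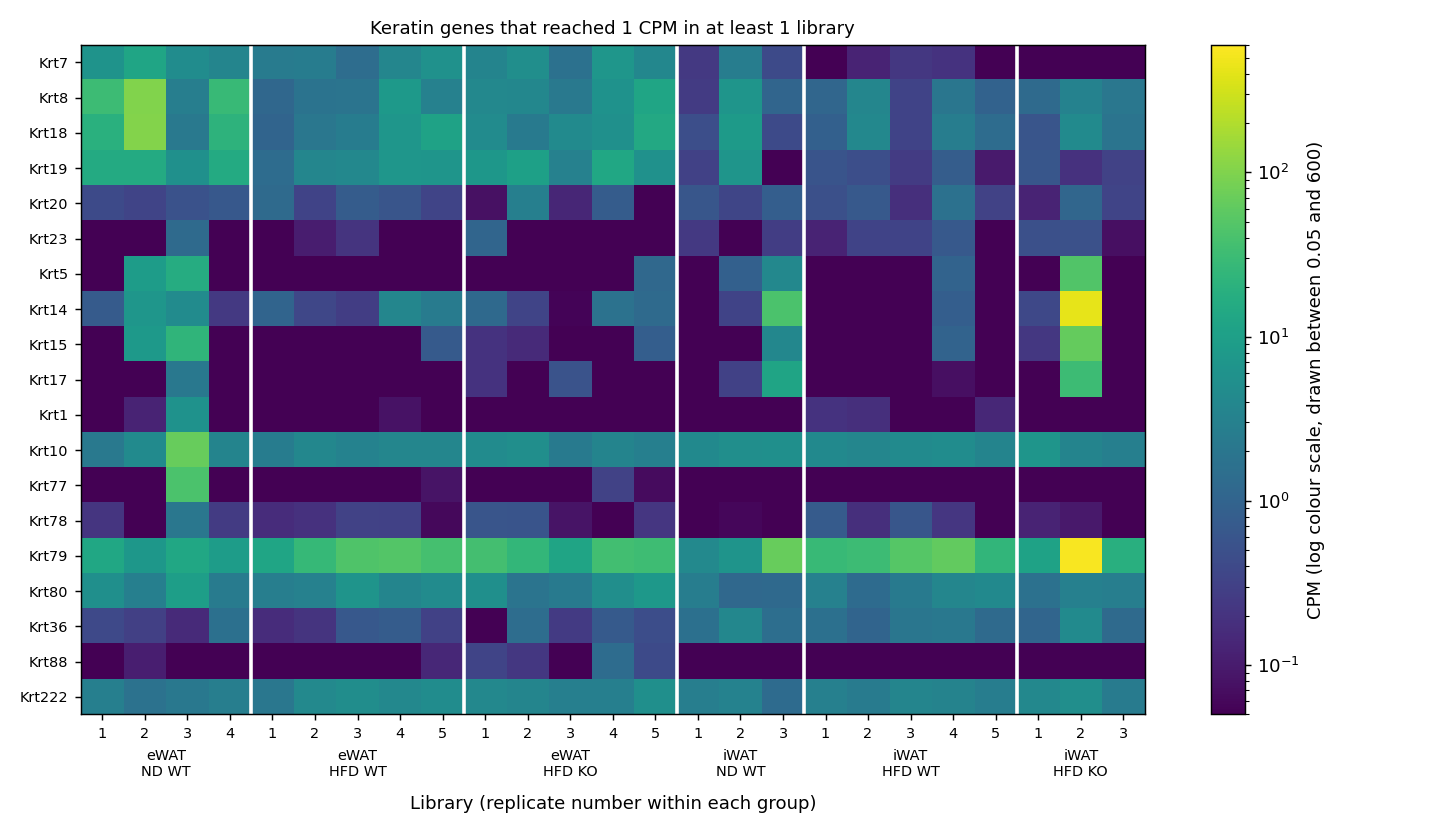
CPM (log colour scale) of the 19 keratins that reached 1 CPM in at least 1 library, by library and group. Krt10, Krt79, Krt80 and Krt222 are above 1 CPM in every library. Krt5, Krt14, Krt15 and Krt17 are highest in iWAT KO 2, with further high values in iWAT ND 3, eWAT ND 3 and, except for Krt17, eWAT ND 2. Krt77 passes 1 CPM in eWAT ND 3 alone (42.3 CPM).

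The 3 keratins on which the comparisons turn are shown by the 200 bases before their RefSeq start (GRCm38.p6, written 5′ to 3′ on the gene's strand): Krt79 because it had the highest median level per length in both depots, and Krt8 and Krt18 because they are partner chains that moved together. Krt8 and Krt18 point away from each other with 23.7 kb between them. Capitals mark matches to any of 4 motifs searched on both strands, a TATA core (TATAA), an AP-2 site (GCCNNNGGC), a GC box (GGGCGG) and an AP-1 site (TGANTCA).
Krt79, chr15:101940325-101940524, minus strand: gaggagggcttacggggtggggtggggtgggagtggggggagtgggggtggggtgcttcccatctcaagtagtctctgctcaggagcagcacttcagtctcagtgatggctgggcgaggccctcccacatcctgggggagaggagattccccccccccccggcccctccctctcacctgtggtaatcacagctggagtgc
Krt8, chr15:102004343-102004542, minus strand: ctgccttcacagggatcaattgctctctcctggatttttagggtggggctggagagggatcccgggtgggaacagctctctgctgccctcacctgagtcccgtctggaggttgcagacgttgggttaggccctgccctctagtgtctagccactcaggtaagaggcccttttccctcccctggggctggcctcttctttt
Krt18, chr15:102028016-102028215, plus strand: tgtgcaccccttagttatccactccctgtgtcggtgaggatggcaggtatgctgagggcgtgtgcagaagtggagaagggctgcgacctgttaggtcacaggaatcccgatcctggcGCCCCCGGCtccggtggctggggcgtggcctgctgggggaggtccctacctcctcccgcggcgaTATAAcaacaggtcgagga

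Of these 3 windows, the Krt18 window alone held a match, a TATA core from base -19 to -15 and an AP-2 site from -83 to -75, counted back from the start. Over 27025 promoter windows of the same length, 19.3% held the TATA core, 11.7% the AP-2 site, 31.3% the GC box and 5.55% the AP-1 site.

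On a scale per length, CPM per kb of cDNA, Krt79 had the highest median level of the 14 tested keratins in both depots, 5.45 in eWAT (highest 10.2, n = 14) and 5.96 in iWAT (0.890 to 117, n = 11). By the mean, which single high libraries raise, Krt18 (10.1) and Krt8 (7.63) stood above Krt79 (5.35) in eWAT, and Krt14 (24.3) above Krt79 (16.5) in iWAT. Krt19 (median 3.69), Krt18 (3.55), Krt8 (2.03) and Krt10 (1.70) followed in eWAT. In iWAT the next were Krt10 (2.06), Krt18 (0.977), Krt36 (0.942), Krt222 (0.906) and Krt8 (0.645). The ranges of neighbouring keratins in both orders overlapped. Krt5, Krt15 and Krt77 had a median of 0 in both depots, since they were read in few libraries.

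Together the 50 keratins summed to 29.1 to 276 CPM in eWAT and 17.9 to 142 in iWAT, with the exception of iWAT KO 2 at 1154 CPM. Krt79 was the largest single keratin in all 10 HFD libraries of eWAT, WT and KO, with 36.4% to 62.5% of the keratin reads. In eWAT ND it was never the largest. Krt8 led in ND 1 and ND 4, Krt18 in ND 2 and Krt10 in ND 3.

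The first comparison asked what HFD changed in WT eWAT. The simple epithelial keratins fell and Krt79 rose. Of the 12 keratins tested, 10 passed an adjusted p of 0.1 (edgeR's quasi-likelihood test, as for all adjusted p-values below), 2 higher (Krt79 and Krt222) and 8 lower in HFD. Of all 14936 genes tested, 51.8% passed, 24.8% higher and 26.9% lower. Krt5, Krt15 and Krt77, among the 8 lower, passed the filter only through ND libraries. Their direction was thus largely fixed by the filter, and their calls are no support for a fall. With the name prefix as a term the keratin count fell to 3 (Krt79 and Krt222 higher, Krt8 lower). Without the 5 libraries with epididymis genes it was 4 of 8 tested (Krt79 higher, Krt8, Krt18 and Krt19 lower). Only ND 1 and ND 4 then stood for ND, and the prefix separated all ND from all HFD WT libraries. That setting thus cannot tell diet from prefix. Without ND 3 alone the keratin count was 5, because Krt5, Krt15 and Krt77 were then under the filter and Krt10 and Krt222 did not pass. In bulk tissue, fewer cells of a type and less RNA per cell cannot be told apart.

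Krt8, the type II chain of simple epithelia, had 31.7, 102, 2.75 and 28.5 CPM in ND 1 to 4. In HFD WT it had 1.16, 1.77, 1.88, 7.75 and 3.10 CPM. ND 1, ND 2 and ND 4 lay above all HFD libraries, and ND 3 lay among them. It fell by 3.72 on the log2 scale (SE 0.82, adjusted p = 0.0035), by 3.24 without the libraries with epididymis genes (adjusted p = 0.0106) and by 2.93 with the prefix as a term (adjusted p = 0.0988).

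Krt18, its type I partner, was likewise high in ND 1, ND 2 and ND 4, with 19.8, 105, 2.20 and 21.6 CPM in ND and 1.04, 2.11, 2.59, 6.87 and 11.2 CPM in HFD WT. It fell by 2.95 (SE 0.89, adjusted p = 0.0176). The groups overlapped through ND 3, and in HFD WT 5 Krt18 stood well above Krt8. The fall was 1.61 without ND 2 (adjusted p = 0.122) and 1.76 with the prefix as a term (adjusted p = 0.263), neither of which passed.

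Krt19, a type I keratin of ducts and mesothelium, was nearly equal in ND 1, 2 and 4 (15.7, 15.5 and 15.6 CPM) and was 5.63 CPM in ND 3. HFD WT libraries had 1.37, 3.67, 4.05, 7.05 and 6.65 CPM. The fall was 1.52 (SE 0.48, adjusted p = 0.0214), and 1.41 with the prefix as a term, which did not pass (adjusted p = 0.153). Krt7, the type II keratin found with Krt19, had 6.12, 12.5, 4.80 and 3.59 CPM in ND and 2.51, 2.59, 1.44, 3.68 and 5.83 CPM in HFD WT. It fell by 1.07 (SE 0.47, adjusted p = 0.0792), and did not pass without the libraries with epididymis genes (adjusted p = 0.253) or without ND 2 (adjusted p = 0.34) or any of HFD WT 1 to 4 (adjusted p of 0.108 to 0.155). The fall of Krt7 was thus the least firm of the 4.

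**Figure D3:**
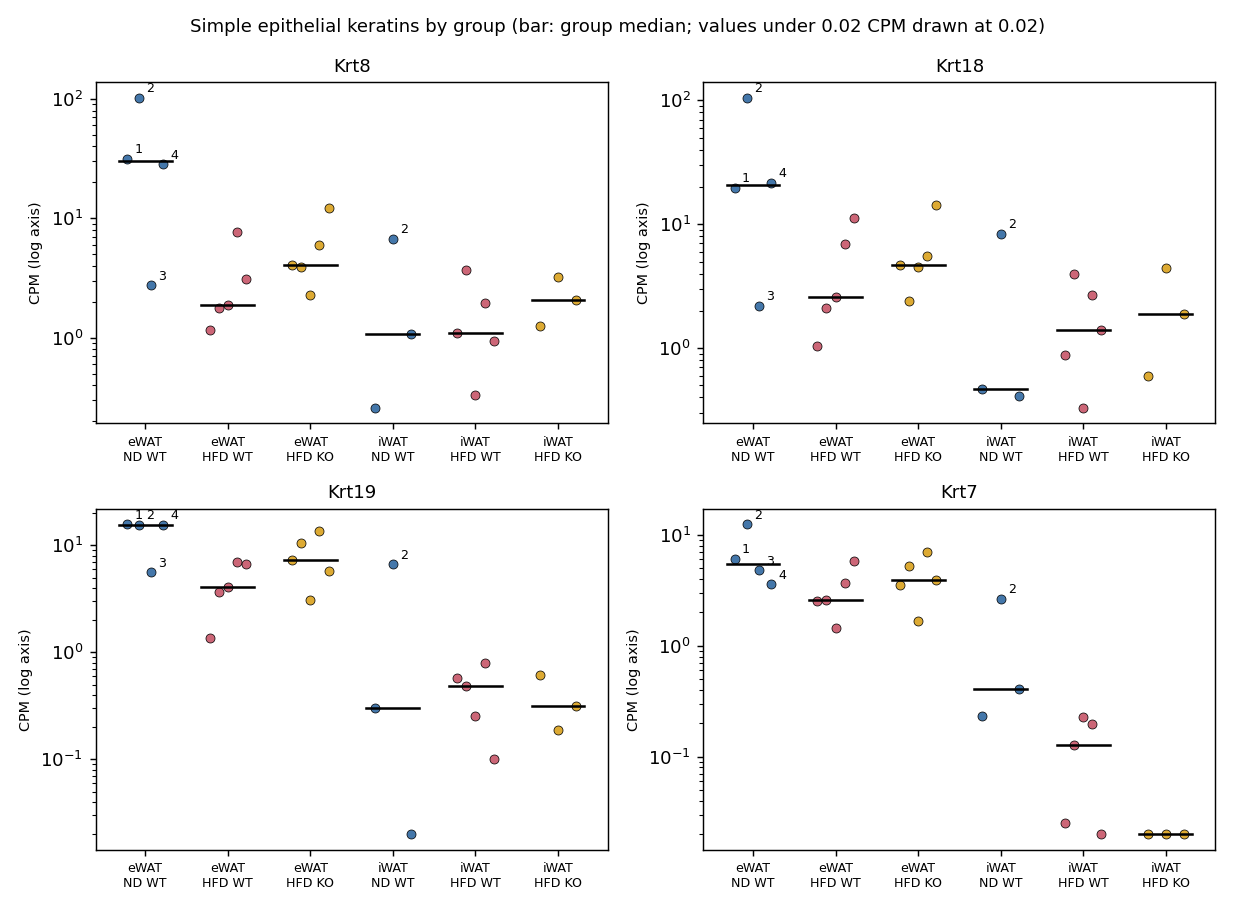
CPM (log axis) of Krt8, Krt18, Krt19 and Krt7 in each library by group; the bar is the group median, and numbers name the eWAT ND libraries and iWAT ND 2. In eWAT, ND 3 sits below the other ND libraries for Krt8, Krt18 and Krt19, and Krt7 was at 0 in the 3 iWAT KO libraries (drawn at 0.02).

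Genes general to epithelia moved with these 4 keratins. Of the 12 such genes tested in eWAT, 12 were lower in HFD WT and none higher, with a median log2 change of -4.64. Of all genes, 26.9% were lower. Some list genes passed the filter mainly through ND, such as Grhl2, at 11.8 CPM in ND 2 and at most 1.66 in any other eWAT library. For such genes the filter largely fixed the direction, so the count is not independent support. Epcam, an adhesion protein of simple epithelia, had 14.6, 89.6, 2.17 and 13.4 CPM in ND and 0.125 to 3.81 in HFD WT. Without ND 2 alone 4 of these genes were called, without the libraries with epididymis genes 6, and with the prefix as a term 4. In ND 3, where Epcam was 2.17 CPM, Krt8 and Krt18 were at the HFD level. ND 1 and ND 4 held only 2.42 and 2.58 CPM of the epididymis list. They were the ND libraries left once those with epididymis genes were removed. ND 1 and ND 4 held 86.8 and 86.9 CPM of 8 motile cilia genes (a list drawn up after the values were seen, with Foxj1 at 28.1 and 26.1 CPM). ND 2 held 48.3 CPM of that list, ND 3 0.379, and the HFD WT libraries 2.04 to 7.96. The part of these other epithelial genes in the fall of the keratins was not tested.

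The mesothelium list moved less. Of 9 genes tested, 2 (Upk3b and Lrrn4) were lower in HFD WT and none higher, with a median log2 change of -0.61. That count was near the share of all genes called lower, 26.9%. With the prefix as a term none was called. None was called without ND 1 or without HFD WT 1 either, 1 without ND 4, HFD WT 3 or HFD WT 4, and 3 without HFD WT 5. Its sum was 110 ± 35.4 CPM in ND (SD, n = 4) and 70.1 ± 14.99 in HFD WT (SD, n = 5), and the ranges overlapped.

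Of 12 genes tested for anchors, the proteins that tie keratin filaments to the cell border, 7 were lower in HFD WT, none was higher and 5 did not pass (median log2 change -1.07). Of all genes, 26.9% were lower and 24.8% higher. The summed list was 914 ± 157 CPM in ND (SD, n = 4) and 839 ± 154 in HFD WT (SD, n = 5), and the ranges overlapped. Dsp, which encodes desmoplakin, the desmosome protein that binds keratin, had 7.67, 24.2, 13.8 and 8.64 CPM in ND and 0.0626 to 1.01 in HFD WT, with no overlap. Unlike Krt8 and Krt18, Dsp was also high in ND 3. Evpl, for envoplakin, fell by 2.48 (SE 0.33, adjusted p = 0.000284). Plec, Dst, Itga6, Pkp1 and Pkp2 were the 5 that did not pass. Jup, at 164 to 247 CPM in ND, fell by 0.999 (SE 0.22, adjusted p = 0.00358). The count was 5 without the libraries with epididymis genes and 5 with the prefix as a term.

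**Figure D4:**
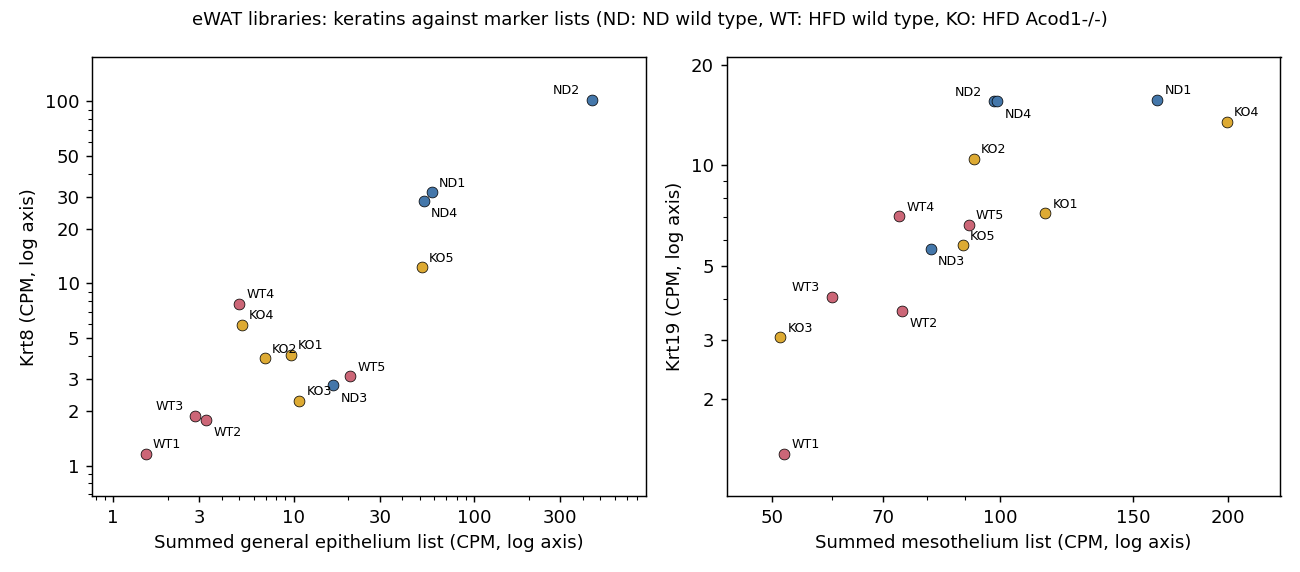
The 14 eWAT libraries, with Krt8 against the summed general epithelium list (left) and Krt19 against the summed mesothelium list (right), all in CPM on log axes. ND 1, ND 2 and ND 4 lie at the upper right on the left panel, ND 3 (2.75 CPM of Krt8) lies among the HFD libraries, and KO 4 has the highest mesothelium sum (200 CPM).

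The basal and epidermal keratins were called in this comparison on the strength of 1 or 2 libraries. Krt5, the basal type II chain, had 8.88 CPM in ND 2 and 16.8 in ND 3, and no read in ND 1, ND 4 or any HFD WT library (adjusted p = 0.0199). Krt15, a type I chain of basal cells, had 7.78 and 23.0 CPM in those libraries, none in ND 1 and ND 4, and 0.706 CPM in HFD WT 5 alone (adjusted p = 0.0399). Krt77, a type II chain of eccrine ducts and skin, had 42.3 CPM in ND 3, no read in the other ND libraries and 0 to 0.0807 CPM in HFD WT (adjusted p = 0.0132). No fold is given for these genes, since a group mostly at 0 sets none.

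Krt10, the type I chain of the upper epidermis, had 66.4 CPM in ND 3, the library with Lor and Flg2, and 2.24, 4.52 and 3.47 CPM in the other ND libraries. HFD WT libraries had 2.61 to 3.90 CPM. It fell by 2.48 (SE 0.79, adjusted p = 0.0223), but the log2 change was 0.01 without ND 3 (adjusted p = 0.983). Krt14 had 0.754, 6.93, 4.57 and 0.234 CPM in ND and 0.275 to 3.71 in HFD WT, and did not pass (adjusted p = 0.448). Krt80, a type II chain of several epithelia, had 5.39, 2.92, 9.55 and 2.50 CPM in ND and 2.75 to 6.36 in HFD WT (adjusted p = 0.605).

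Krt79, a type II chain, moved the other way. ND libraries of eWAT had 13.4, 7.13, 13.5 and 9.07 CPM. HFD WT libraries had 12.3, 26.9, 45.9, 48.7 and 37.5 CPM, so that 4 of 5 lay above every ND library and 1 among them. It rose by 1.67 (SE 0.39, adjusted p = 0.00493), by 1.84 with the prefix as a term (adjusted p = 0.0223) and by 1.60 without the libraries with epididymis genes (adjusted p = 0.0677). HFD WT 5, the HFD WT library with the prefix of the ND libraries, had 37.5 CPM. The sebaceous list stood at 2.85 to 10.6 CPM in ND and 2.53 to 6.22 in HFD WT, and these ranges overlapped. Krt222, a keratin-like gene of little known function, rose by 0.75 (SE 0.30, adjusted p = 0.0573), from 1.71 to 2.85 CPM in ND to 2.08 to 4.99 in HFD WT. It did not pass without the libraries with epididymis genes (adjusted p = 0.436), nor without ND 2 (adjusted p = 0.147), ND 3 (0.118), HFD WT 3 (0.118) or HFD WT 5 (0.107).

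The second comparison set HFD-fed KO against HFD-fed WT eWAT, to ask what Acod1 loss changed. No keratin passed, 0 of 12, and 0 had an unadjusted p under 0.05, while 19.9% of all genes passed, 9.13% higher and 10.8% lower in KO. DESeq2 called 1, Krt5, which had 1.20 CPM in KO 5, 0.0250 CPM in KO 1 and no read in the other KO libraries or in HFD WT. Krt8 had 4.07, 3.88, 2.27, 5.95 and 12.3 CPM in KO, with a log2 difference from HFD WT of 0.86 (SE 0.74, adjusted p = 0.468). Krt19 had 7.21, 10.5, 3.06, 13.5 and 5.78 CPM, a difference of 0.81 (SE 0.46, adjusted p = 0.259). For Krt79 the KO values were 36.8, 24.9, 12.3, 34.9 and 32.8 CPM, a difference of -0.28 (SE 0.35, adjusted p = 0.646). KO and WT libraries overlapped for each of these genes.

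The other keratins of KO eWAT overlapped with HFD WT as well, apart from reads in single libraries. Krt18 had 4.69, 2.42, 4.51, 5.52 and 14.4 CPM, highest in KO 5, the KO library with the most epididymis reads. Krt7 had 3.52, 5.26, 1.67, 7.02 and 3.88 CPM, highest in KO 4, where the mesothelium list was also highest (200 CPM). Krt10 had 2.38 to 5.18 CPM, Krt14 0.0546 to 1.72, Krt15 0 to 0.829, Krt77 0 to 0.322, Krt80 1.88 to 7.48 and Krt222 2.84 to 5.41 CPM. Of the general epithelium list 0 of 12 genes were called in this comparison, and of the mesothelium list 0 of 9. Of the 12 anchor genes 3 were higher in KO and 1 lower, against 9.13% higher and 10.8% lower of all genes. Of the 13 epididymis genes tested 6 were higher (Lcn8, Lcn9, Cst8, Cst11, Rnase10 and Spag11b). Each of these 6 was highest in KO 1, at 22.8 to 77.1 CPM. In the other KO libraries Cst8 reached 10.6 CPM (KO 4) and the other 5 genes at most 0.683 CPM.

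In iWAT, 2 of 11 keratins (Krt14 and Krt17) were called lower in HFD WT and none higher, with 50.1% of all 14801 genes called, 25.9% higher and 24.2% lower. Both calls came from ND 3, the ND library with sebaceous genes. Krt14 had 41.7 CPM there, 0 and 0.332 CPM in ND 1 and ND 2, and 0.837 CPM in HFD WT 4 with no read in the other HFD WT libraries (adjusted p = 0.0687). Krt17, a type I chain of skin appendages, had 12.04 CPM in ND 3, 0.0470 and 0.312 CPM in ND 1 and ND 2, and 0 to 0.0738 CPM in HFD WT (adjusted p = 0.0318). Krt5 and Krt15 had 3.98 and 3.80 CPM in ND 3 and did not pass (adjusted p = 0.289 and 0.36). Without ND 3 neither Krt14 nor Krt17 was called, and Krt19 was the 1 keratin that was, lower in HFD.

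For Krt79 of iWAT the same library, ND 3, stood with the HFD libraries. ND libraries had 4.23, 6.52 and 68.2 CPM, the last in ND 3. HFD WT libraries had 28.3, 31.5, 50.7, 63.0 and 23.8 CPM. With all libraries the log2 change was 0.60 (SE 1.18, adjusted p = 0.707). Without ND 3 and KO 2, the libraries with sebaceous genes (a choice made after the data were seen), it was 2.88 (adjusted p = 0.00193), and without ND 3 alone 2.88 (adjusted p = 0.13). The 5 HFD WT libraries then lay above both remaining ND libraries. With the prefix as a term and all libraries the change was -0.86 (adjusted p = 0.681). HFD WT 5 had 23.8 CPM, and it is the HFD WT library with the ND prefix.

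The simple keratins of iWAT were low and spread. Krt8 had 0.258, 6.73 and 1.07 CPM in ND and 1.10, 3.68, 0.329, 1.97 and 0.943 CPM in HFD WT (adjusted p = 0.543). Krt18 had 0.470, 8.35 and 0.410 CPM in ND and 0.329 to 3.96 in HFD WT (adjusted p = 0.611). In both, ND 2 stood highest, and it also had 6.66 CPM of Krt19 and 2.65 of Krt7, which were at most 0.788 and 0.410 CPM in every other iWAT library. ND 2 was the library with Csn3 (5.48 CPM), Wfdc18 (2.21) and Elf5 (1.31) of the mammary list. Of Csn1s1, Csn1s2a and Wap, further genes of the list, it had no read. Krt10 had 4.25 to 5.28 CPM in ND and 3.47 to 4.90 in HFD WT, Krt80 1.19 to 2.63 and 1.33 to 4.39, Krt36 1.502 to 3.84 and 1.02 to 2.17, and Krt222 1.34 to 3.16 and 2.50 to 3.60. None of these 4 passed. The anchor genes went both ways in iWAT. Of 11 tested, 4 were higher in HFD WT (Jup, Pkp2, Dst and Itga6) and 2 lower. These counts were near the shares of all genes, 25.9% higher and 24.2% lower.

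In iWAT of KO mice, Krt79 reached 557 CPM and Krt14 427 CPM in KO 2. This library also had 66.4 CPM of Krt15, 46.5 of Krt5 and 30.7 of Krt17, with 389 CPM of Lgals7 and 164 of Dsp. Krt10 stood at 3.48 CPM and Krt1 at 0.0317 CPM there, within the range of the other iWAT libraries, and Lor stood at 0.0317 CPM. KO 1 and KO 3 had 11.2 and 18.6 CPM of Krt79, below all 5 HFD WT libraries, and 0.387 and 0 CPM of Krt14. No keratin of 11 passed against HFD WT, as no gene of 14801 did (0%). Of all genes 2468 had an unadjusted p under 0.05, among them 4 keratins (Krt5, Krt14, Krt15 and Krt17), all highest in KO 2. These 4 passed without KO 3, and DESeq2 called no keratin and 1072 genes in all. The log2 difference of Krt79 was 2.27 (SE 1.13, adjusted p = 0.345) with KO 2 and -1.40 without it (adjusted p = 0.561). Krt8 had 1.26, 3.23 and 2.07 CPM, Krt18 0.593, 4.43 and 1.87 CPM, and Krt7 no read in the 3 KO libraries. Krt36 had 1.08 to 4.46 CPM, Krt80 1.65 to 3.04 and Krt222 2.46 to 5.19 CPM in KO.

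**Figure D5:**
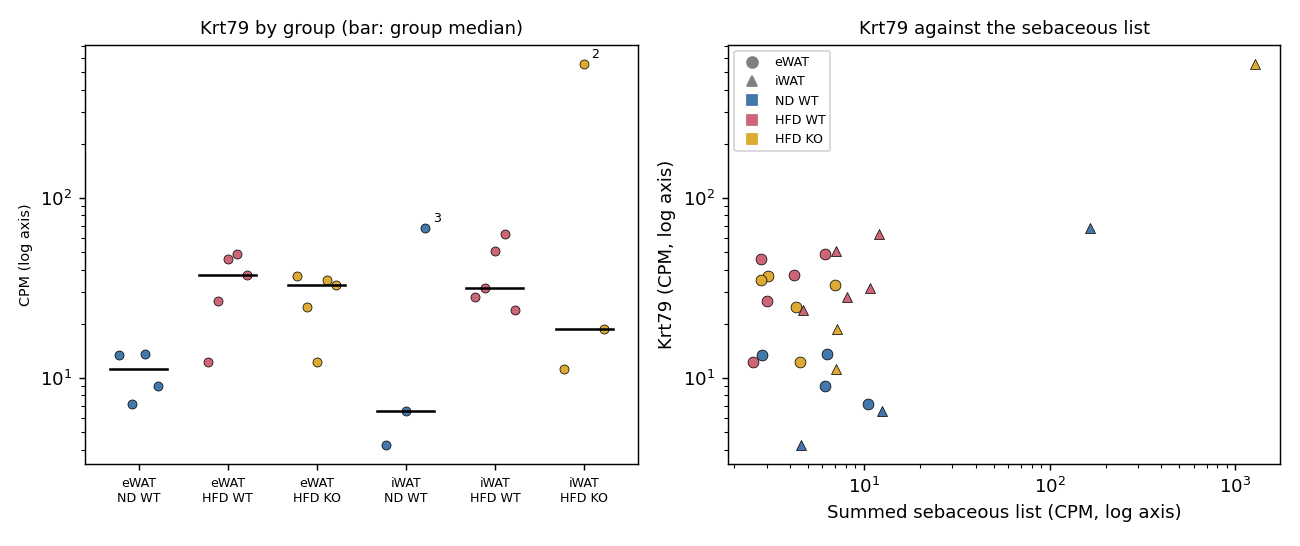
Left, Krt79 in CPM (log axis) by group, with the group median as a bar and the numbers of the 2 iWAT libraries with sebaceous genes. Right, Krt79 against the summed sebaceous list, both in CPM on log axes; iWAT KO 2 (557 CPM) and iWAT ND 3 (68.2 CPM) stand apart. Most of the other HFD libraries lie above the other ND libraries, with eWAT HFD WT 1 (12.3), eWAT KO 3 (12.3) and iWAT KO 1 (11.2 CPM) at the level of eWAT ND.

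Between depots, averaged over the 3 matched groups, 9 of 14 keratins passed, 6 higher and 3 lower in eWAT, where 27.3% of all 15034 genes passed, 15.6% higher and 11.8% lower. Krt7, Krt19 and Krt77 passed the filter of eWAT but not that of iWAT, and Krt17 and Krt36 the reverse. For these genes the filter largely fixed the direction. Without the libraries with epididymis genes 7 passed, 3 higher and 4 lower, and without those with sebaceous genes 8 passed, 7 higher and 1 lower. The mesothelial and ductal keratins led the higher side. Krt19 was higher in eWAT by 3.42 (SE 0.60, adjusted p = 0.000339), with 1.37 to 15.7 CPM in eWAT (median 6.85) and 0 to 6.66 in iWAT (median 0.316). Krt7 was called higher (adjusted p = 2.89e-06), with 1.44 to 12.5 CPM in eWAT and 0 to 2.65 in iWAT. No fold is given for Krt7, since it had no read in iWAT KO. Apart from iWAT ND 2, eWAT and iWAT did not overlap in Krt7 or Krt19.

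Krt8 and Krt18 differed less between depots and overlapped, higher in eWAT by 2.09 (SE 0.55, adjusted p = 0.00925) and 2.14 (SE 0.63, adjusted p = 0.0188). Without the libraries with epididymis genes the difference in Krt18 was 1.46 and did not pass (adjusted p = 0.106). Krt80 was higher in eWAT by 0.96 (SE 0.28, adjusted p = 0.0188), and did not pass without those libraries (adjusted p = 0.15). Krt77 was the sixth, from ND 3 of eWAT (adjusted p = 0.0547).

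Krt36, a type I keratin of the hair keratin group, was lower in eWAT, with a log2 difference of -1.94 (SE 0.44, adjusted p = 0.00317). It had 0.0499 to 1.62 CPM in eWAT and 1.02 to 4.46 in iWAT, and it was read in all 25 libraries, while Krt31 to Krt35 and the other hair and root sheath keratins listed were under 1 CPM. Krt17 was called lower in eWAT from 2 iWAT libraries, ND 3 and KO 2 (adjusted p = 0.0843). Krt79 was called lower in eWAT by these same libraries. Its log2 difference was -1.43 (SE 0.50, adjusted p = 0.0443) with them, 0.58 without them (adjusted p = 0.141), -0.18 without KO 2 alone (adjusted p = 0.79) and -0.66 without ND 3 alone (adjusted p = 0.347). Without the eWAT libraries with epididymis genes it was -1.49 and did not pass (adjusted p = 0.148). Krt5, Krt10, Krt14, Krt15 and Krt222 did not pass.

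The last comparisons asked whether the effect of diet or of genotype differed between depots. For diet, 1 of 14 keratins passed, Krt10, with 29% of all genes called, 14% higher and 15% lower. Its difference was -2.26 (SE 0.96, adjusted p = 0.0976), and 0.23 without eWAT ND 3 (adjusted p = 0.749). Of the 25 fits that each left out 1 library, Krt10 passed in 5 (without eWAT ND 1, ND 2 or ND 4, or iWAT KO 1 or KO 3). Krt8, which fell in eWAT, had a difference between depots of -2.97 (SE 1.29, adjusted p = 0.104) and Krt79 one of 1.08 (SE 1.20, adjusted p = 0.562), neither of which passed. For Krt8 the difference passed with DESeq2 (-2.98, adjusted p = 0.0639) and in 5 of the 25 fits that left out 1 library. These were without iWAT ND 2 (-4.98, adjusted p = 0.0235), when Krt18 and Krt19 passed too, and without eWAT ND 3 (adjusted p = 0.0529), eWAT HFD WT 4 (0.0559), eWAT KO 5 (0.0975) or iWAT HFD WT 3 (0.0852). For genotype, 0 of 14 keratins and 0.00665% of all genes passed. Among those keratins Krt7, Krt14 and Krt79 had an unadjusted p under 0.05, and DESeq2 called none. Krt14 passed without eWAT KO 5, iWAT KO 1 or iWAT KO 3.

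Whether keratins followed a kind of epithelium from library to library was examined inside the groups, by the correlation of each tested keratin with 5 lists (mesothelium, general epithelium, epidermis, epididymis and anchors), as deviations from the group mean on the log2 scale. Of 115 such relations none passed an adjusted p of 0.1 by Pearson's r, and 24 had an unadjusted p under 0.05, all of them positive. A permutation test within groups gave the p-values. By Spearman's rho 1 passed, Krt15 of eWAT with the anchors (rho = 0.78, adjusted p = 0.031 by permutation, r = 0.74). The closest of the others were Krt18 with the general epithelium list in eWAT (r = 0.82, permutation p = 0.00104, adjusted p = 0.109, rho = 0.68, n = 14) and Krt19 with the mesothelium list (r = 0.78, permutation p = 0.00248, adjusted p = 0.109, rho = 0.78). Without the 2 libraries farthest from the list's median r was 0.68 for Krt18 and 0.71 for Krt19.

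Among the 8 eWAT libraries with prefix 1, r was 0.79 for Krt19 with mesothelium and 0.37 for Krt18 with general epithelium, and among the 6 with prefix 2 it was 0.75 and 0.89. Krt8 and general epithelium had r of -0.02 and 0.78 in these libraries. For Krt8 and Krt18 r was higher among the libraries of prefix 2, which include all ND libraries, and the difference between prefixes was not tested.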

How the data were processed

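Messenger RNA was sequenced on an Illumina NovaSeq from directional libraries. The authors trimmed reads with cutadapt, discarded reads under 18 bases and those matching a contaminants database, and aligned the rest with STAR to GRCm38. The counting program and its strand setting were not given in the sources used here. For each library the authors deposited whole-number read counts per gene, the cDNA length, and FPKM values that follow from both. The counts were tested, the deposited lengths were used for CPM per kb, and the FPKM values were checked and not used further. Reads on no feature, 6.41% to 11.9%, stayed out of library sizes.

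Symbols came from GENCODE vM21, which matched 54723 of 54752 IDs. Per depot, genes with a mean of 1 CPM or more were tested with edgeR 4.0.16 (TMM, quasi-likelihood, R 4.3.3), on all groups of the depot. The depot contrasts used all 25 libraries. Genes with a Benjamini-Hochberg adjusted p under 0.1 were called. Printed CPM are TMM-scaled over all 25 libraries. Alternatives included DESeq2 1.42.0 and leaving out each library. The scripts were tested on simulated data. Relations used log2 CPM with a prior count of 2 and 100000 permutations within groups. An edgeR p-value weighs a difference between groups against the spread between libraries.

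The members and gene lists were chosen with earlier results of these data known. The sebaceous and motile cilia lists, and the removal of libraries holding over 50 CPM of the epididymis or sebaceous list, were chosen after seeing values. Every keratin past the filter is named with its values, those under it are counted, and those reaching 1 CPM are named. Exons of Krt5, Krt7, Krt8, Krt10 and Krt80 overlap an opposite-strand gene over 1.09% to 6.91% of their bases, where reads could be shared if strand was not used. Sequences came from RefSeq's table, which held 35 of the 50 keratins.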

Additional observations from a re-analysis of the deposited data

Results flagged for a closer look

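In groups of 4 or more libraries, a keratin whose highest or lowest library stood far from the rest of its group (Dixon's test, 47 groups examined, about 1 in 20 by chance) was found 8 times. Where all other libraries of a group were at 0, any count over 3 was flagged. The rate of 1 in 20 does not apply to such groups, so the 8 cannot be read against it. In eWAT ND, Krt77 was 42.3 CPM in library 3 and 0 in the others, and Krt19 was 5.63 CPM in library 3 against 15.5 to 15.7 in the others. In eWAT HFD WT, Krt222 was 2.08 CPM in library 1 against 4.02 to 4.99, and Krt15 was 0.706 CPM in library 5 against 0. In eWAT KO, Krt5 was 1.20 CPM in library 5 against 0 to 0.0250. In iWAT HFD WT, library 4 alone had reads of the basal keratins, with 1.01 CPM of Krt5, 0.837 of Krt14 and 0.984 of Krt15. The effect of diet on Krt10 differed between depots by -2.26 on the log2 scale, by the test of the difference itself, and this rested on eWAT ND 3.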

How the results depend on the processing

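The counts of keratins called moved under these settings. In eWAT diet (10 of 12 called), 3 with the name prefix as a term, 4 of 8 tested without the libraries with epididymis genes, and 5 to 10 leaving out 1 library each. In eWAT genotype (0 of 12), 1 with DESeq2 and 1 of 35 tested without a filter on low counts. In iWAT diet (2 of 11), 1 at an adjusted p of 0.05, 6 of 28 tested without a filter, 0 with DESeq2, 0 of 4 tested with 1 CPM in every library, and 1 to 4 leaving out a library. In iWAT genotype (0), 0 to 4 leaving out a library, the 4 without KO 3. Between depots (9 of 14), 2 of 4 tested with 1 CPM in every library and 7 to 9 leaving out a library. For the depot difference in diet effect (1), 0 at an adjusted p of 0.05, 0 with the prefix as a term, 0 without the libraries with epididymis genes, 0 without those with sebaceous genes, 2 with DESeq2 and 0 to 3 leaving out a library. For the difference in genotype effect (0), 0 to 1 leaving out a library. Signs turned for Krt10 (eWAT diet 0.25 and depot difference 0.47 without the libraries with epididymis genes; -2.84 to 0.01 and -2.63 to 0.23 leaving out a library) and for Krt79 (iWAT diet -0.86 with the prefix as a term; iWAT genotype -1.40, depot 0.58 and depot difference -1.18 without the libraries with sebaceous genes; iWAT genotype -1.40 to 2.88 and depot difference -1.20 to 1.59 leaving out a library). Where a sign turned on leaving out libraries, those libraries decide it. The cause of the other changes was not tested.

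Deviations of same-numbered libraries correlated between -0.18 and 0.49. Differently numbered libraries were not compared, so whether replicate numbers pair the samples was not settled. With the replicate block 7 keratins were called in eWAT diet, 0 in iWAT diet and 6 between depots (5 higher, 1 lower), and Krt8 passed for the depot difference in diet effect (adjusted p = 0.0688) while Krt10 did not (adjusted p = 0.221). Of the relations with marker lists 0 passed under each alternative. The closest relations of Krt15, Krt18 and Krt19 had an adjusted p of 0.109, an estimate from random permutations that lies close to the threshold of 0.1.

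Keratins read in 1 or 2 libraries give calls that follow those libraries. At this depth a keratin with no read in a library was not detected there, which does not show that it is absent.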
